A study of Mus musculus with 12 samples.

Results

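Heat shock proteins are molecular chaperones, and the genes described here code for 10 of them or their partners: the cytosolic HSP70s Hspa8 and Hspa1b, their cochaperones Dnajb1, Hsph1 and Bag3, the small heat shock protein Hspb1, the cytosolic HSP90s Hsp90aa1 and Hsp90ab1, and the mitochondrial chaperonin pair Hspd1 and Hspe1. They were taken by gene symbol from a liver RNA-seq table of 13097 genes, and all 10 were in it. The measurements come from 12 female C57BL/6 mice, 3 months old, in 4 groups of 3. The groups were Sirt6 liver-specific knockout mice on ethanol, knockout mice pair-fed, wild-type mice on ethanol and wild-type mice pair-fed. Ethanol-fed mice received a 5% ethanol Lieber-DeCarli liquid diet for 10 days and a single ethanol binge of 5 g/kg; pair-fed mice received an isocaloric control diet and a maltose dextrin binge. The promoter driving Cre in the knockout is not stated in the sources used here.

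HSP70 binds exposed hydrophobic stretches of unfolded proteins and is cycled by ATP: J-domain proteins such as Dnajb1 stimulate its hydrolysis, and exchange factors such as Hsph1 (HSP110) and Bag3 release the nucleotide. HSP90 acts later, on near-native clients such as kinases and steroid receptors, and HSP60 (Hspd1) with its lid HSP10 (Hspe1) folds proteins imported into mitochondria. In stressed cells the transcription factor HSF1 is freed from chaperones and binds heat shock elements, inverted repeats of GAA, in the promoters of many of these genes. Hspa8 and Hsp90ab1 are the forms kept at high level in unstressed cells, and Hspa1b and Hsp90aa1 the more inducible ones.

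Total counts were 17305141 to 18279809 per library. Sirt6 had 46 to 68 counts in each of the 12 libraries. Its log2 fold change of knockout over wild-type libraries was -0.23 ± 0.21 in pair-fed mice (edgeR adjusted p = 0.914) and 0.01 ± 0.21 in ethanol-fed mice (edgeR adjusted p = 0.985). No loss of Sirt6 passed the test, so the knockout libraries are called labelled knockout throughout. The deleted exons are not given, so counts over the whole gene cannot check the label or speak against it. Transcripts of 9 hepatocyte markers summed to 95516 to 167558 TMM-normalised CPM in ethanol-fed mice, against 160673 to 183319 CPM in pair-fed mice, a sum made mostly of Alb (54239 to 103122 CPM in ethanol-fed mice, against 115087 to 131888 CPM in pair-fed mice). Of the 9 markers 1 rose and 0 fell in labelled knockout mice, where 13.7% of all genes rose and 10.9% fell. In wild-type mice 0 rose and 3 fell, where 18.9% of all genes rose and 14.5% fell. The 12 Kupffer cell markers summed to 280 to 374 CPM in labelled knockout ethanol-fed mice, against 602 to 768 CPM in pair-fed mice of that label, and 11 of 12 fell there, where 10.9% of all genes did. In wild-type mice they summed to 291 to 673 CPM on ethanol, against 406 to 609 CPM pair-fed, with log2 fold changes from -0.70 to 0.48 (median -0.26) that did not pass in edgeR. The 9 markers of T, B and NK cells summed to 3.39 to 4.70 CPM in labelled knockout ethanol-fed mice, against 7.47 to 8.72 CPM in pair-fed mice of that label. In wild-type mice they summed to 3.69 to 5.30 CPM on ethanol, against 4.27 to 9.29 CPM pair-fed, all low levels for 9 genes together. Averaged over both labels 6 of these 9 markers were lower, where 21.4% of all genes were. Their part in the results below was not tested. In whole liver, fewer cells of a type and less RNA per cell cannot be told apart. The 6 pair-fed libraries lay close together and the 6 ethanol-fed ones spread, with a biological coefficient of variation of 0.224 in labelled knockout and 0.271 in wild-type ethanol-fed mice, against 0.114 and 0.117 in the pair-fed mice of the same labels.

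Promoter sequence was taken from RefSeq (build GRCm38.p6, the assembly of mm10) as 250 bases before to 50 after a gene's start, and 7 of the 10 genes were matched at the start site of the deposited table, all but Hspa8, Hsp90aa1 and Hsp90ab1. Each window was searched for the heat shock element letters GAANNTTC and TTCNNGAA, 2 inverted GAA units that each read the same on both strands, and for their 3-unit forms GAANNTTCNNGAA and TTCNNGAANNTTC, which overlap them. At least 1 of the 2-unit forms was in 15.06% of 32851 mouse promoters of this length (GAANNTTC in 7.86% and TTCNNGAA in 8.52%), and a 3-unit form in 0.6%. Of the genes with matches upstream of the start, only Hspb1 passed the threshold under ethanol with all 12 libraries. Whether these letters bear on the ethanol values was not tested. The windows around the upstream matches are shown here, and capitals mark the matching letters.
Hspb1, chr5:135887777-135887854, plus strand: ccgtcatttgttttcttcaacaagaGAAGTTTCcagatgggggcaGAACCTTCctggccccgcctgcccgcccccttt
Hspa1b, chr17:34959310-34959367, minus strand: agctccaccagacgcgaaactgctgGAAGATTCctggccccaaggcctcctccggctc
Hsph1, chr5:149636337-149636394, minus strand: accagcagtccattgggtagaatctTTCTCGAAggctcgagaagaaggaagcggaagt
Hspd1 and Hspe1, chr1:55088034-55088101, plus strand: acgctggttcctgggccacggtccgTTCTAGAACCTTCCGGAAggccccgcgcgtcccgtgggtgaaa

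Hspd1 and Hspe1 are read in opposite directions from start sites 216 bases apart, so the same stretch lies upstream of both, and it holds 3 overlapping 2-unit matches and 2 overlapping 3-unit matches. Hsph1 had 3 matches, of which the 3-unit TTCTGGAAAGTTC starts 15 bases after the start site. Hspb1 had 2 matches, 117 and 97 bases before its start, and Hspa1b had 1, 104 bases before. Bag3 had 1 match, GAAGTTTC, 42 bases after its start. The letters searched were not in the Dnajb1 window. These are letter matches, not measured binding.

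Levels between genes were compared per kb of exon. The order of the median over 12 libraries was Hsp90ab1 (357 CPM per kb), Hspa8 (82.8), Hspd1 (73.1), Hspe1 (53.9), Bag3 (18.7), Hsph1 (10.5), Dnajb1 (9.29), Hsp90aa1 (6.52), Hspb1 (3.99) and Hspa1b (0.943 CPM per kb). The constitutive HSP90 gene Hsp90ab1 had 241 to 413 CPM per kb, above every value of Hspa8, which ran from 32.4 to 131 CPM per kb. Hspe1, at 44.7 to 66.9 CPM per kb, was above every value of Bag3, at 12 to 29.9 CPM per kb. All other neighbours in this order overlapped in range over the 12 libraries, although within each mouse Hspd1 was above Hspe1, by 1.13 to 1.63 times, just as Bag3 was above Hsph1 and Hsp90aa1 above Hspb1. How reads that map to several places were counted is not given, which bears on levels set between genes where one has processed pseudogenes, as Hspa8 and Hspe1 do. Summed over the 10 genes, the transcripts made up 1043, 1681 and 1135 CPM in labelled knockout ethanol-fed mice, against 1437, 1431 and 1453 CPM in pair-fed mice of that label, and 1257, 999 and 1052 CPM in wild-type ethanol-fed mice, against 1402, 1476 and 1667 CPM in wild-type pair-fed mice. All 3 wild-type ethanol-fed mice were below all pair-fed ones, whereas labelled knockout mouse 2 was above every pair-fed mouse of its label. Hsp90ab1 alone, at 605 to 1036 CPM, made up most of every sum. The sum is thus no common fall of the 10, as Bag3, Hspb1 and Hsp90aa1 were higher on ethanol averaged over both labels.

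**Figure D1:**
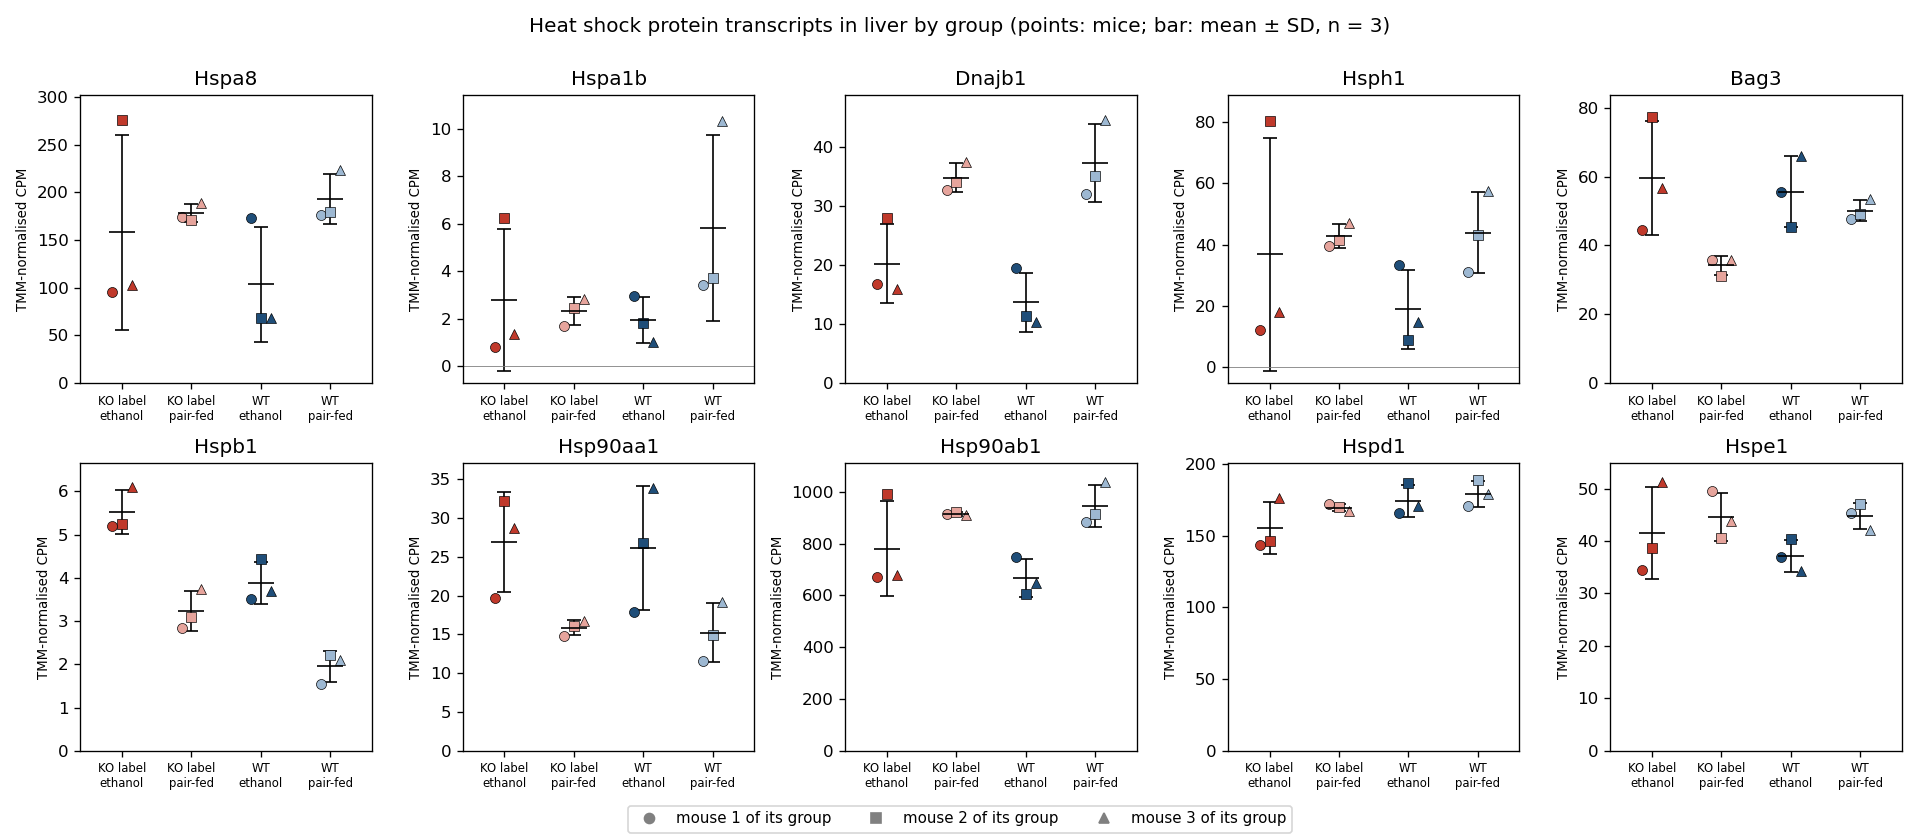
TMM-normalised CPM (y axes, linear, with 0 shown) of the 10 heat shock genes in the 4 groups; points are mice, with 1 symbol per mouse number, and the bar is the mean ± SD of 3 mice. In the ethanol-fed labelled knockout group, mouse 2 (squares) stands above its group mates for Hspa8 (276 CPM), Hsph1 (80.4 CPM) and Hspa1b (6.24 CPM), while Hspb1 is higher in every ethanol-fed group than in the pair-fed group of its label.

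Ethanol feeding changed these genes in both directions. In labelled knockout mice Bag3, Hspb1 and Hsp90aa1 rose and Dnajb1 fell, which is 4 of 10 genes past an adjusted p of 0.05 in edgeR's quasi-likelihood test, against 24.6% of all 13097 genes (13.7% higher and 10.9% lower). In wild-type mice Hspb1 and Hsp90aa1 rose and Dnajb1 and Hsp90ab1 fell, again 4 of 10, against 33.4% of all genes (18.9% higher and 14.5% lower). Averaged over both labels, 3 of the 10 rose and 2 fell, against 47.0% of all genes (25.6% higher and 21.4% lower). These shares are near the background, so the count is no result about heat shock genes as a group. The median log2 fold change of the 10 was -0.12 in labelled knockout mice, beside 0.04 over all genes, and -0.38 in wild-type mice, beside 0.03 over all genes. The counts moved with single libraries, and so did the share of all genes called. In labelled knockout mice 1 gene passed without pair-fed mouse 1 or 2 of that label, where 16.3% and 14.1% of all genes did. There 2 genes passed without its pair-fed mouse 3 (16% of all genes) or its ethanol-fed mouse 3 (20.5%). The same number passed without wild-type pair-fed mouse 2 (21.9%). In wild-type mice 2 passed without ethanol-fed mouse 2 or 3 or pair-fed mouse 2, against 29.6%, 24.7% and 23.9% of all genes. Without labelled knockout ethanol-fed mouse 2, 7 passed, against 34%. The 2 ethanol comparisons share no mice, but all were fitted with 1 estimate of spread.

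**Figure D2:**
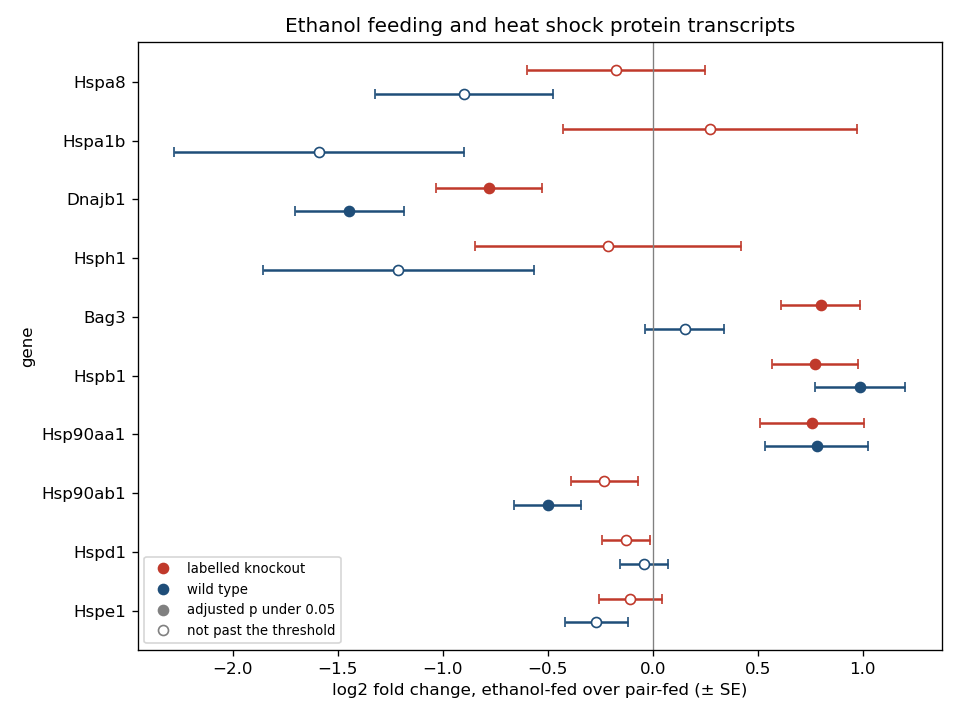
Log2 fold change of ethanol-fed over pair-fed mice (x axis) with its standard error for each gene, labelled knockout above wild type; filled points passed an adjusted p of 0.05. Dnajb1 lies left of 0 and Hspb1 and Hsp90aa1 right of 0 in both labels, and the standard errors of Hspa8, Hspa1b and Hsph1 are the widest.

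Hspb1 (mm10 chromosome 5, 135887919 to 135889563, plus strand) codes for HSP27, a small heat shock protein that holds unfolded proteins in soluble oligomers without ATP and binds actin. It had 5.21, 5.25 and 6.11 CPM in labelled knockout ethanol-fed mice, against 2.85, 3.09 and 3.75 CPM in pair-fed mice of that label. In wild-type mice it had 3.52, 4.45 and 3.69 CPM on ethanol, against 1.54, 2.22 and 2.10 CPM pair-fed. Every ethanol-fed mouse was above every pair-fed mouse of its label. The log2 fold change was 0.77 ± 0.20 (SE; edgeR adjusted p = 0.0159) in labelled knockout mice and 0.99 ± 0.21 (edgeR adjusted p = 0.00397) in wild-type mice. The labelled knockout call was lost without pair-fed mouse 1 (0.69, edgeR adjusted p = 0.0639) or pair-fed mouse 2 of that label (0.74, edgeR adjusted p = 0.0619).

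Hsp90aa1 (mm10 chromosome 12, 110691036 to 110696395, minus strand) codes for the inducible cytosolic HSP90. It had 19.7, 32.2 and 28.8 CPM in labelled knockout ethanol-fed mice, against 14.8, 16.1 and 16.7 CPM in pair-fed mice of that label. Wild-type mice had 17.9, 26.8 and 33.9 CPM on ethanol, against 11.6, 15.0 and 19.2 CPM pair-fed. The labelled knockout groups did not overlap; in wild type, ethanol-fed mouse 1 lay below the highest pair-fed mouse. Hsp90aa1 rose by 0.76 ± 0.25 on the log2 scale in labelled knockout mice (edgeR adjusted p = 0.0396) and by 0.78 ± 0.25 in wild-type mice (edgeR adjusted p = 0.0275). The labelled knockout call was lost without ethanol-fed mouse 2 (0.61, edgeR adjusted p = 0.129) or 3, any of the 3 pair-fed mice of that label, or wild-type ethanol-fed or pair-fed mouse 2, with values of 0.61 to 0.80 and edgeR adjusted p from 0.0548. The wild-type call was lost without ethanol-fed mouse 2 or 3 or pair-fed mouse 1 or 2, with values of 0.55 to 0.77 and edgeR adjusted p from 0.0659 to 0.118. It was also lost with the wild-type groups fitted alone (edgeR adjusted p = 0.0652), and the labelled knockout call with limma-voom (adjusted p = 0.0540).

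Hsp90ab1 (mm10 chromosome 17, 45567778 to 45573261, minus strand), the constitutive cytosolic HSP90, had 669, 991 and 679 CPM in labelled knockout ethanol-fed mice, against 913, 921 and 909 CPM in pair-fed mice of that label. The wild-type values were 748, 605 and 649.5 CPM on ethanol, against 882, 912 and 1036 CPM pair-fed. All ethanol-fed mice except labelled knockout mouse 2 were below all pair-fed mice. Hsp90ab1 fell in wild-type mice (log2 fold change -0.50 ± 0.16, edgeR adjusted p = 0.0289). That call was lost without ethanol-fed or pair-fed mouse 2 or 3 of that label, with values of -0.52 to -0.43 and edgeR adjusted p from 0.0608 to 0.108, and under total-count scaling (-0.34, edgeR adjusted p = 0.147). In labelled knockout mice the value was -0.23 ± 0.16 (edgeR adjusted p = 0.313), and -0.44 ± 0.14 without mouse 2 (edgeR adjusted p = 0.0416).

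The inducible HSP90 gene was higher relative to the constitutive one in every ethanol-fed mouse. Per kb, the Hsp90aa1 to Hsp90ab1 ratio was 0.0259, 0.0286 and 0.0373 in labelled knockout ethanol-fed mice, against 0.0143, 0.0153 and 0.0162 in pair-fed mice of that label. In wild-type mice it was 0.0211, 0.0390 and 0.0459 on ethanol, against 0.0115, 0.0144 and 0.0163 pair-fed. All 6 ethanol-fed mice were above all 6 pair-fed mice. The mean log2 ratio was higher by 1.12 on ethanol (0.99 in labelled knockout and 1.26 in wild-type mice), with p = 0.005 in an exact two-sided permutation test of feeding within each label, which is the smallest p that its 400 arrangements can give. It was the only 1 of 3 ratios tested to pass 0.05. A ratio within a library does not depend on how libraries were scaled.

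**Figure D3:**
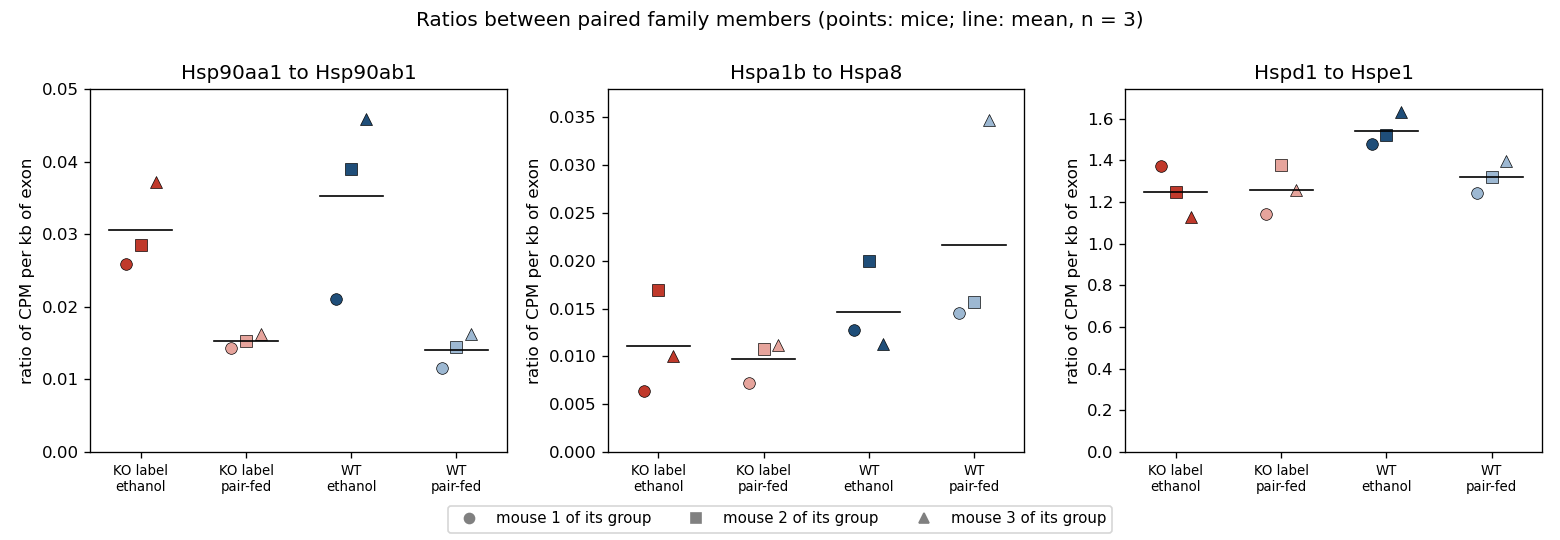
Ratios of CPM per kb of exon (y axes, linear, from 0) between paired family members in each mouse, with the mean of 3 mice as a line. The Hsp90aa1 to Hsp90ab1 ratio is at least 0.0211 in every ethanol-fed mouse and at most 0.0163 in every pair-fed mouse, whereas the groups overlap for Hspa1b to Hspa8.

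Dnajb1 (mm10 chromosome 8, 83608175 to 83612653, plus strand) codes for HSP40, the main stress-inducible J-domain partner of cytosolic HSP70. It had 16.8, 28.0 and 15.9 CPM in labelled knockout ethanol-fed mice, against 32.7, 34.1 and 37.5 CPM in pair-fed mice of that label. Wild type had 19.4, 11.3 and 10.3 CPM on ethanol, against 32.0, 35.0 and 44.7 CPM pair-fed. All 6 ethanol-fed mice were below all 6 pair-fed mice, labelled knockout mouse 2 being the nearest to them. The log2 fold change was -0.78 ± 0.25 in labelled knockout mice (edgeR adjusted p = 0.0407) and -1.44 ± 0.26 in wild-type mice (edgeR adjusted p = 0.00147). In labelled knockout mice 9 of 20 alternatives put the adjusted p above 0.05, up to 0.129. Among these 9 were leaving out any pair-fed mouse or ethanol-fed mouse 1 or 3 of that label, or wild-type pair-fed mouse 1 or 2, and total-count scaling. The log2 values over all 20 ran from -1.09, without ethanol-fed mouse 2 of that label and past the threshold, to -0.63. In wild-type mice none of 20 lost the call.

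Bag3 (mm10 chromosome 7, 128523583 to 128546979, plus strand) codes for a BAG-domain exchange factor that links HSP70 to small heat shock proteins and to autophagy of its clients. It had 44.5, 77.4 and 56.7 CPM in labelled knockout ethanol-fed mice, against 35.6, 31.1 and 35.9 CPM in pair-fed mice of that label. In wild-type mice it had 55.7, 45.3 and 66.1 CPM on ethanol, against 47.7, 49.1 and 53.6 CPM pair-fed. The labelled knockout groups did not overlap and the wild-type groups did. Bag3 rose in labelled knockout mice (log2 fold change 0.80 ± 0.19, edgeR adjusted p = 0.00923) and was past the threshold in all 20 alternatives there. In wild-type mice the value was 0.15 ± 0.19 (edgeR adjusted p = 0.560). The difference between these ethanol effects, tested as an interaction, was 0.65 ± 0.27 (unadjusted p = 0.0296, edgeR adjusted p = 0.936), so the effects are not shown to differ.

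Hspa8, Hspa1b and Hsph1 did not pass the threshold in either label, and of the 10 genes they had the widest ratio of the highest to the lowest ethanol-fed mouse. Hspa8 (HSC70), the constitutive HSP70 (mm10 chromosome 9, 40801273 to 40805199, plus strand), had 95.7, 276 and 102 CPM in labelled knockout ethanol-fed mice, against 175, 171 and 189 CPM in pair-fed mice of that label. Wild-type mice had 174, 68.6 and 68.3 CPM on ethanol, against 176, 179 and 223 CPM pair-fed. In each label 2 ethanol-fed mice were far below the pair-fed range, labelled knockout mouse 2 was above it and wild-type mouse 1 just below it. The log2 fold change was -0.17 ± 0.42 in labelled knockout mice (edgeR adjusted p = 0.794) and -0.90 ± 0.43 in wild-type mice (edgeR adjusted p = 0.127).

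Hsph1 (mm10 chromosome 5, 149616845 to 149636315, minus strand) codes for HSP110, an HSP70-like protein that exchanges HSP70's nucleotide and helps it pull aggregates apart. It had 12.1, 80.4 and 17.9 CPM in labelled knockout ethanol-fed mice, against 39.6, 41.3 and 47.1 CPM in pair-fed mice of that label. The wild-type values were 33.4, 8.72 and 14.6 CPM on ethanol, against 31.1, 43.1 and 57.3 CPM pair-fed. The same 2 mice, labelled knockout 2 and wild-type 1, were the high ones of their groups, and the highest labelled knockout ethanol-fed value was 6.65 times the lowest, against 1.19 times in pair-fed mice of that label. The log2 fold change was -0.21 ± 0.63 in labelled knockout mice (edgeR adjusted p = 0.834) and -1.21 ± 0.65 in wild-type mice (edgeR adjusted p = 0.173).

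Hspa1b (mm10 chromosome 17, 34956429 to 34959238, minus strand, 1 exon) codes for an inducible HSP70 and had the lowest median level per kb of the 10, with 16 to 177 counts per library. In wild-type pair-fed mouse 3 it was above Hspb1, at 3.68 against 2.33 CPM per kb. It had 0.817, 6.24 and 1.37 CPM in labelled knockout ethanol-fed mice, against 1.69, 2.47 and 2.83 CPM in pair-fed mice of that label. Wild type had 2.95, 1.82 and 1.03 CPM on ethanol, against 3.42, 3.74 and 10.3 CPM pair-fed. The log2 fold change was 0.27 ± 0.70 in labelled knockout mice (edgeR adjusted p = 0.807) and -1.59 ± 0.69 in wild-type mice (edgeR adjusted p = 0.0974). Hspa1a, its near-identical neighbour, is not analysed here, and reads shared by the pair may be counted for either or neither, so Hspa1b values are uncertain. The Hspa1b to Hspa8 ratio differed by -0.19 on the log2 scale (exact two-sided permutation p = 0.575).

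**Figure D4:**
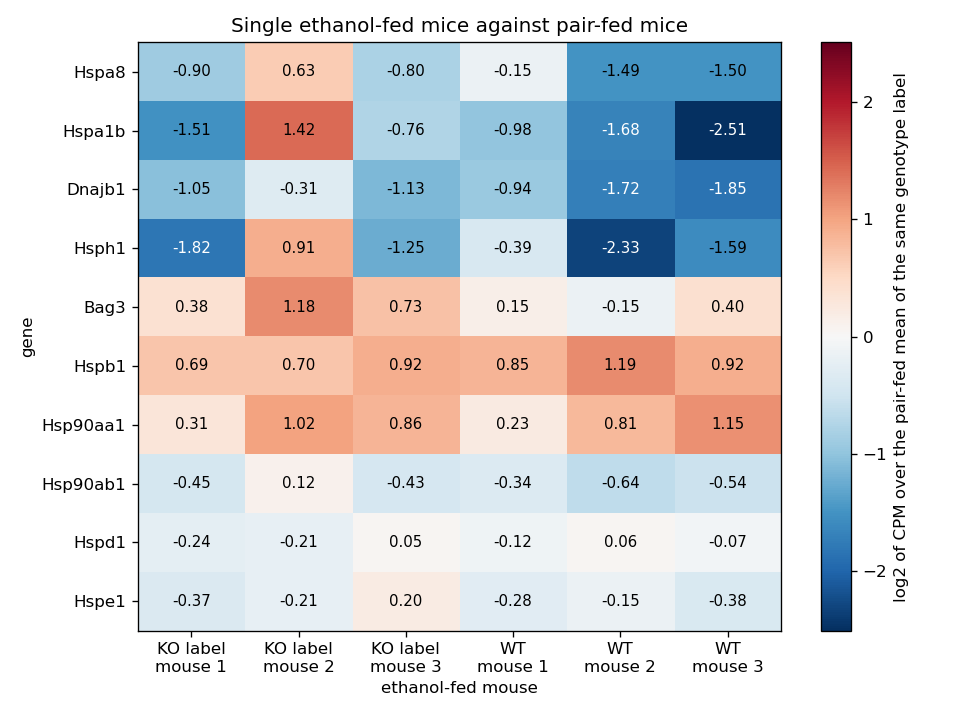
Log2 ratio of each ethanol-fed mouse's CPM to the mean of the 3 pair-fed mice of its label; columns are mice, rows genes, red higher and blue lower. Labelled knockout mouse 2 is above the pair-fed mean for Hspa8 (0.63), Hspa1b (1.42) and Hsph1 (0.91), where its group mates are below it; wild-type mouse 1 is nearest to 0 of its group for the same 3 genes.

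Labelled knockout ethanol-fed mouse 2 was the highest of its group for 7 of the 10 genes and the lowest for 0, against 32.3% and 33.4% of all genes. Pair-fed mouse 3 of each label was also the highest of its group for 7 of the 10 (32.1% of all genes in labelled knockout and 32.0% in wild type). Labelled knockout ethanol-fed mouse 1 and wild-type pair-fed mouse 1 were each the lowest for 9 of the 10 (30.5% and 35.5% of all genes). Such an order is thus not particular to 1 library. The values of Hspa8, Hspa1b and Hsph1 rest on labelled knockout ethanol-fed mouse 2 and wild-type ethanol-fed mouse 1, so each was left out in turn. Both were picked for being high in Hspa8, Hspa1b and Hsph1, so leaving one out lowers these genes in its label by construction. Spread is estimated over all groups, so a mouse left out also changes the adjusted p of the other label. The calls that follow are therefore no independent support. Without labelled knockout mouse 2, 5 of 10 genes passed in labelled knockout mice, where 21.2% of all genes did, Hsph1 (-1.51 ± 0.47, edgeR adjusted p = 0.0450) and Hsp90ab1 being added and Hsp90aa1 lost, while Hspa8 was at -0.85 (edgeR adjusted p = 0.106) and Hspa1b turned to -1.10 (edgeR adjusted p = 0.216). In wild-type mice the fold changes hardly moved without it, and 7 of 10 passed, where 34.0% of all genes did, with Hspa8 (edgeR adjusted p = 0.0429), Hspa1b (edgeR adjusted p = 0.0252) and Hsph1 (edgeR adjusted p = 0.0412) added. Without wild-type mouse 1, Hspa8 in wild type was -1.50 ± 0.39 (edgeR adjusted p = 0.0126) and Hsph1 -1.91 ± 0.74 (edgeR adjusted p = 0.0723). On the first principal component of log2 CPM over all genes, these 2 libraries had the scores nearest to the pair-fed mice among the 6 ethanol-fed ones, 24.2 and 25.6, against 34.5 to 69.2 in the other 4 and -42.1 to -36.6 in pair-fed mice. The endoplasmic reticulum chaperone Hyou1, a relative of Hsph1, had 93.3, 527 and 341 CPM in labelled knockout ethanol-fed mice, against 134 to 161 CPM in pair-fed mice of that label, and 523, 109 and 64.2 CPM in wild-type ethanol-fed mice, against 119 to 173 CPM pair-fed. Both high libraries were high for Hyou1 too, as was labelled knockout mouse 3, which was not high for Hsph1. Hyou1 was chosen after its values were seen, so it is no support for a pattern of these libraries. The endoplasmic reticulum chaperones Hspa5 and Hsp90b1 were higher in labelled knockout mouse 3 (2457 and 1598 CPM) than in mouse 2 (2250 and 1427 CPM). In wild-type ethanol-fed mice both were highest in mouse 1 (2664 and 1962 CPM). The Kupffer cell markers summed to 374, 280 and 282 CPM in labelled knockout ethanol-fed mice and to 673, 334 and 291 CPM in wild-type ethanol-fed mice, so wild-type mouse 1 was apart in them too; their part in these values was not tested.

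**Figure D5:**
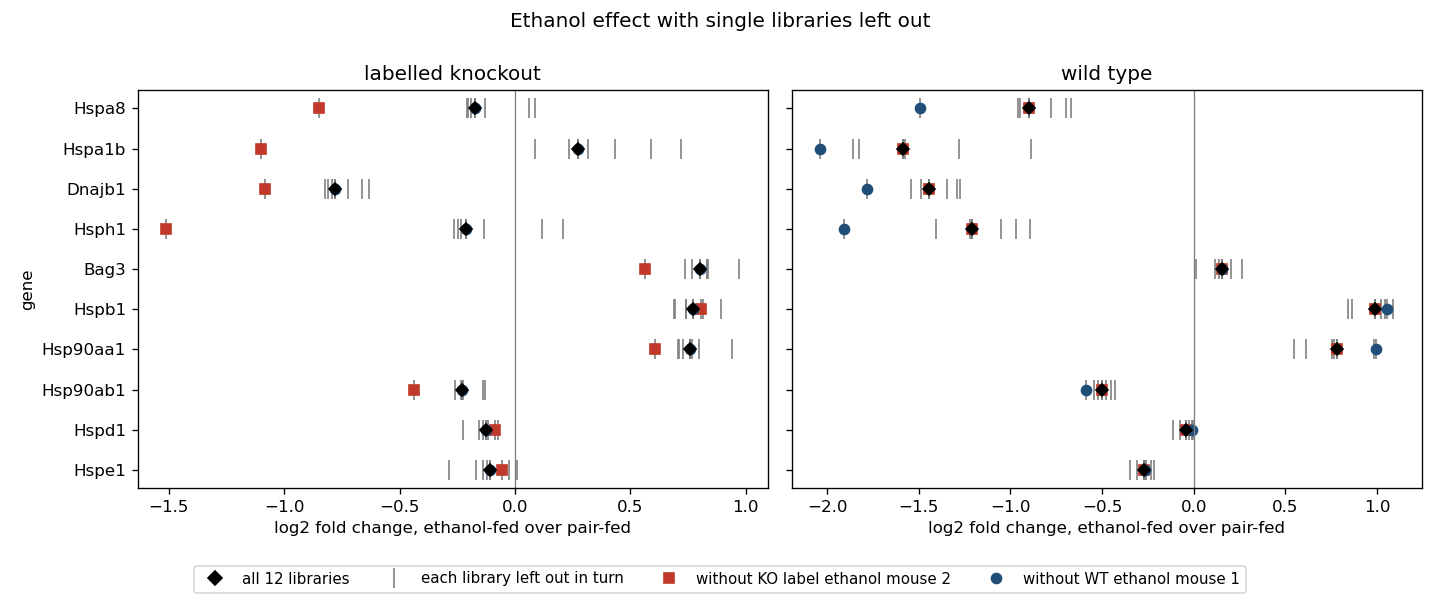
Log2 fold change of ethanol-fed over pair-fed mice with all 12 libraries (diamonds) and with each library left out in turn (ticks), labelled knockout on the left and wild type on the right. Leaving out labelled knockout ethanol-fed mouse 2 (squares) takes Hsph1 to -1.51 in that label, and leaving out wild-type ethanol-fed mouse 1 (circles) takes Hspa8 to -1.50 in wild type.

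The mitochondrial chaperonin genes had the smallest log2 fold changes of the 10 when averaged over labels, -0.08 for Hspd1 and -0.19 for Hspe1. Hspd1, which codes for HSP60 (mm10 chromosome 1, 55077834 to 55087932, minus strand), had 144, 147 and 176 CPM in labelled knockout ethanol-fed mice, against 172, 170.1 and 167 CPM in pair-fed mice of that label. In wild-type mice it had 166, 187 and 170.4 CPM on ethanol, against 171, 189 and 179 CPM pair-fed. The groups overlapped in both labels, with log2 fold changes of -0.13 ± 0.11 in labelled knockout mice (edgeR adjusted p = 0.452) and -0.04 ± 0.11 in wild-type mice (edgeR adjusted p = 0.808); under total-count scaling the wild-type value turned to 0.11.

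Hspe1, which codes for HSP10 (mm10 chromosome 1, 55088148 to 55091317, plus strand), had 34.5, 38.6 and 51.3 CPM in labelled knockout ethanol-fed mice, against 49.6, 40.6 and 43.8 CPM in pair-fed mice of that label. Wild-type mice had 36.9, 40.4 and 34.4 CPM on ethanol, against 45.3, 47.1 and 42.2 CPM pair-fed. The wild-type groups did not overlap, but the log2 fold change of -0.27 ± 0.15 did not pass (edgeR adjusted p = 0.184); in labelled knockout mice it was -0.11 ± 0.15 (edgeR adjusted p = 0.636). Per kb, Hspd1 was 1.13 to 1.37 times Hspe1 in labelled knockout ethanol-fed mice, against 1.14 to 1.38 times in pair-fed mice of that label, and 1.48 to 1.63 times in wild-type ethanol-fed mice, against 1.24 to 1.40 times in wild-type pair-fed mice. The mean log2 ratio differed by 0.11 between feeding groups (exact two-sided permutation p = 0.185).

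The genotype label moved few of the 10. None passed an adjusted p of 0.05 in pair-fed mice, where 0.870% of all genes did, and none in ethanol-fed mice, where 1.13% did. The edgeR unadjusted p was under 0.05 for 2 genes in pair-fed mice (Bag3 and Hspb1) and for 2 in ethanol-fed mice (Dnajb1 and Hspb1). The share of all genes under that unadjusted p was not counted, so these numbers are no result about the 10. At its adjusted threshold DESeq2 called 0 of them in each. In pair-fed mice the labelled knockout and wild-type values did not overlap for 3 of the 10, against 24.4% of all genes. These were Hspb1 (log2 fold change 0.72 ± 0.22, edgeR adjusted p = 0.214), Bag3 (-0.55 ± 0.19, edgeR adjusted p = 0.308) and Hspa1b (-1.32 ± 0.68, edgeR adjusted p = 0.666). The authors' deposited table gives false discovery rates of 0.148 for Hspb1, 0.227 for Bag3 and 0.620 for Hspa1b in that comparison. Fitted on the pair-fed groups alone, which lie close together, Bag3 passed at -0.55 ± 0.09 (edgeR adjusted p = 0.00829).

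Hspb1 was also higher in each labelled knockout ethanol-fed mouse than in every wild-type ethanol-fed mouse (0.51 ± 0.20, edgeR adjusted p = 0.268). Averaged over both feeding conditions it was the 1 of 10 genes to pass, at 0.62 ± 0.15 (edgeR adjusted p = 0.0414), where 2.97% of all genes passed. The call was lost with every single library left out except labelled knockout ethanol-fed mouse 1 and wild-type ethanol-fed mice 1 and 2, with values of 0.54 to 0.67 and edgeR adjusted p from 0.0530 to 0.127. In ethanol-fed mice Dnajb1 was at 0.57 ± 0.26 (edgeR adjusted p = 0.333), Hsph1 at 0.96 ± 0.64 (edgeR adjusted p = 0.509) and Hspa8 at 0.61 ± 0.42 (edgeR adjusted p = 0.522). Without labelled knockout mouse 2 the values of Hsph1 and Hspa8 turned to -0.34 and -0.06, and without wild-type mouse 1 Dnajb1 passed at 0.91 ± 0.23 (edgeR adjusted p = 0.0402). The interaction of label and feeding passed for none of the 10 (0 in DESeq2 too), and for 0.00764% of all genes. Bag3 alone had an edgeR unadjusted p under 0.05 there, a threshold at which all genes were again not counted.

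Other genes of the heat shock system were counted in lists by role, to be read against all genes, of which 13.7% rose and 10.9% fell in labelled knockout mice and 18.9% rose and 14.5% fell in wild-type mice. The transcription factor Hsf1 itself had log2 fold changes of -0.03 ± 0.15 in labelled knockout mice (edgeR adjusted p = 0.896) and -0.14 ± 0.15 in wild-type mice (edgeR adjusted p = 0.484), the first turning to 0.023 without pair-fed mouse 3 of that label and the sign of both turning under total-count scaling. Of 5 heat shock factor genes and partners in the table, 0 rose and 2 fell under ethanol in each label. Hsf2, a related factor that can pair with HSF1, had 17.5, 25.1 and 18.7 CPM in labelled knockout ethanol-fed mice, against 33.3, 32.7 and 36.7 CPM in pair-fed mice of that label, and 17.1, 15.3 and 15.5 CPM in wild-type ethanol-fed mice, against 31.1, 34.1 and 35.2 CPM pair-fed. Its groups were far apart in both labels, with labelled knockout mouse 2 again the highest ethanol-fed one (-0.75 ± 0.14, edgeR adjusted p = 0.00279, in labelled knockout and -1.07 ± 0.14, edgeR adjusted p = 0.000253, in wild-type mice). Hsf4 fell by 0.74 in labelled knockout mice (edgeR adjusted p = 0.00695) and by 1.41 in wild-type mice (edgeR adjusted p = 0.000136).

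Among 11 other HSP70 and HSP110 genes, 3 rose and 0 fell in labelled knockout mice and 5 rose and 1 fell in wild-type mice, where 24.6% and 33.4% of all genes passed. Hspa5 (BiP), the HSP70 of the endoplasmic reticulum, had 866, 2250.4 and 2457 CPM in labelled knockout ethanol-fed mice, against 520.2 to 596 CPM in pair-fed mice of that label, and 2664, 1209.7 and 1946 CPM in wild-type ethanol-fed mice, against 502 to 637 CPM pair-fed. It rose by 1.75 ± 0.35 in labelled knockout (edgeR adjusted p = 0.00458) and by 1.76 ± 0.35 in wild-type mice (edgeR adjusted p = 0.00287). Hspa4, an HSP110 relative, rose by 0.76 in labelled knockout (edgeR adjusted p = 0.00100) and by 0.49 in wild-type mice (edgeR adjusted p = 0.00770). Hspa4l rose by 0.70 in labelled knockout (edgeR adjusted p = 0.0116) and by 1.02 in wild-type mice (edgeR adjusted p = 0.00104). So within the HSP110 group Hspa4 and Hspa4l were higher on ethanol while Hsph1 was not past the threshold. The mitochondrial HSP70 Hspa9 rose in wild-type mice (0.60, edgeR adjusted p = 0.00841) and was at 0.36 in labelled knockout mice (edgeR adjusted p = 0.0992). Among 4 other small heat shock genes, Hspb8, a partner of Bag3, rose in both labels (1.48 ± 0.34, edgeR adjusted p = 0.00914, in labelled knockout and 1.34 ± 0.34, edgeR adjusted p = 0.0101, in wild-type mice). Hsp90b1, the HSP90 of the endoplasmic reticulum, was at 0.71 ± 0.44 in labelled knockout (edgeR adjusted p = 0.262) and at 0.46 ± 0.44 in wild-type mice (edgeR adjusted p = 0.454), and at -0.29 there without ethanol-fed mouse 1. Trap1, the mitochondrial HSP90, was at -0.31 in labelled knockout mice (edgeR adjusted p = 0.0641) and fell in wild-type mice (-0.33, edgeR adjusted p = 0.0398), a call lost without any 1 pair-fed mouse or wild-type ethanol-fed mouse 1 or 3 (edgeR adjusted p from 0.0557 to 0.114). The wild-type call was also lost under total-count scaling, with the wild-type groups fitted alone and with a replicate block.

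Of 21 HSP90 cochaperones, 2 rose and 5 fell in labelled knockout mice and 2 rose and 10 fell in wild-type mice; 10.9% of all genes fell in labelled knockout and 14.5% in wild-type mice. Their median log2 fold change was -0.19 in labelled knockout mice, beside 0.04 over all genes, and -0.39 in wild-type mice, beside 0.03 over all genes. Unc45a, which brings HSP90 to myosin, rose by 1.03 ± 0.17 in labelled knockout mice (edgeR adjusted p = 0.00121) and by 1.37 ± 0.17 in wild-type mice (edgeR adjusted p = 0.000169). Ahsa2, a relative of the HSP90 ATPase activator Aha1, fell in wild-type mice (-1.02 ± 0.17, edgeR adjusted p = 0.00108), and so did Fkbp4, an immunophilin of steroid receptor complexes that was chosen after its values were seen (-0.83 ± 0.19, edgeR adjusted p = 0.00528). Fkbp4 had 104, 174 and 148 CPM in labelled knockout ethanol-fed mice, against 187 to 213 CPM in pair-fed mice of that label, and 129, 92.9 and 87.3 CPM in wild-type ethanol-fed mice, against 166 to 201 CPM pair-fed. All ethanol-fed mice were below the pair-fed ones of their label, with labelled knockout mouse 2 and wild-type mouse 1 the nearest. As Fkbp4 was chosen with these values known, it is no support for a pattern of these 2 libraries. With single libraries left out, 2 to 9 cochaperones were called in labelled knockout mice (2 without pair-fed mouse 2, and 3 without pair-fed mouse 1 or ethanol-fed mouse 1 of that label) and 8 to 13 in wild-type mice.

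Of 28 J-domain proteins, 4 rose and 1 fell in labelled knockout mice and 4 rose and 2 fell in wild-type mice. Over all genes 24.6% passed in labelled knockout and 33.4% in wild-type mice, and the same shares hold for the next lists. Without labelled knockout pair-fed mouse 1 or 2, 3 J-domain genes passed in that label, and under total-count scaling 11 passed in wild-type mice. Dnajc22 fell by 0.73 in labelled knockout (edgeR adjusted p = 0.000525) and by 0.76 in wild-type mice (edgeR adjusted p = 0.000243). The mitochondrial Dnaja3 rose by 0.50 in labelled knockout (edgeR adjusted p = 0.00708) and by 0.67 in wild-type mice (edgeR adjusted p = 0.000859). Dnaja4 was the only one of all listed chaperone genes to pass for the label within a feeding group, higher by 0.93 in labelled knockout than in wild-type pair-fed mice (edgeR adjusted p = 0.0135), and did not pass without wild-type pair-fed mouse 1 or 3 or labelled knockout pair-fed mouse 3 (edgeR adjusted p from 0.0787 to 0.0983). Of 11 HSP70 exchange factors and regulators, 1 rose and 1 fell in labelled knockout mice and 2 rose and 3 fell in wild-type mice, where 3 passed without ethanol-fed mouse 3 or with the wild-type groups fitted alone. BAG proteins went both ways. Bag5 rose by 0.84 in labelled knockout (edgeR adjusted p = 0.00301) and by 0.93 in wild-type mice (edgeR adjusted p = 0.00105), and Bag4 fell by 1.03 in labelled knockout (edgeR adjusted p = 0.00196) and by 0.94 in wild-type mice (edgeR adjusted p = 0.00227). Of 19 mitochondrial chaperones and proteases, 2 rose and 1 fell in labelled knockout mice and 2 rose and 2 fell in wild-type mice, among them Clpx, which unfolds substrates for the ClpP protease (1.06 ± 0.22 in labelled knockout mice, edgeR adjusted p = 0.00447). That count was 5 in labelled knockout mice under total-count scaling or without ethanol-fed mouse 3, and 2 in wild-type mice without any 1 pair-fed mouse or ethanol-fed mouse 3. Of 16 subunits and partners of the cytosolic chaperonin TRiC and prefoldin, 1 rose and 2 fell in labelled knockout mice and 2 rose and 3 fell in wild-type mice. At most 1 passed in labelled knockout mice without any 1 pair-fed mouse of that label, while 6 passed in DESeq2 and 5 in limma with group weights; in wild-type mice 3 passed without pair-fed mouse 2. Within the TRiC ring Cct3 rose by 0.46 in labelled knockout (edgeR adjusted p = 0.0206) and by 0.52 in wild-type mice (edgeR adjusted p = 0.00777). The subunit Cct4 fell by 0.47 in labelled knockout (edgeR adjusted p = 0.0181) and by 0.42 in wild-type mice (edgeR adjusted p = 0.0229). In wild-type mice the subunits Tcp1 (-0.41, edgeR adjusted p = 0.0108) and Cct8 (-0.52, edgeR adjusted p = 0.0122) fell too. The Cct3 call in labelled knockout mice was lost without pair-fed mouse 2 or 3 or ethanol-fed mouse 3 of that label, and the Cct4 call without pair-fed mouse 1 or 2 or ethanol-fed mouse 3 (edgeR adjusted p up to 0.0823 for Cct3 and 0.0619 for Cct4).

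The last list held HSF1 target genes, most of them outside the heat shock families. Of 19 in the table, 7 rose and 1 fell in labelled knockout mice and 5 rose and 5 fell in wild-type mice, where 24.6% and 33.4% of all genes passed. Hspa4l, given above with the HSP110 genes, is counted among those that rose in both labels. Hmox1, the heme-degrading oxygenase that NRF2 also drives, rose by 3.35 ± 0.32 in labelled knockout (edgeR adjusted p = 8.62e-05) and by 2.72 ± 0.31 in wild-type mice (edgeR adjusted p = 0.000136). Sqstm1, the autophagy receptor p62, rose by 2.55 ± 0.31 in labelled knockout (edgeR adjusted p = 0.000339) and by 2.42 ± 0.31 in wild-type mice (edgeR adjusted p = 0.000228). Zfand2a, an arsenite-inducible partner of the proteasome, had 14.4, 20.1 and 16.7 CPM in labelled knockout ethanol-fed mice, against 7.33 to 9.04 CPM in pair-fed mice of that label, and 15.0, 21.7 and 19.6 CPM in wild-type ethanol-fed mice, against 8.24 to 8.55 CPM pair-fed. No Zfand2a value on ethanol reached down to the pair-fed range (1.03 ± 0.17, edgeR adjusted p = 0.00140, in labelled knockout and 1.17 ± 0.17, edgeR adjusted p = 0.000464, in wild-type mice). Labelled knockout ethanol-fed mouse 2 was the highest of its group for 14 of these 19 genes, against 2 for mouse 1 and 3 for mouse 3, while over all genes it was the highest for 32.3%. In wild-type ethanol-fed mice the highest were mouse 1 for 8, mouse 2 for 4 and mouse 3 for 7. Among pair-fed mice, wild-type mouse 3 was the highest of its group for 13 of the 19, against 32.0% of all genes. Labelled knockout pair-fed mouse 3 was the highest for 8, against 32.1%. A lead of this size in 1 mouse is thus not particular to ethanol feeding. Of the 20 genes listed, 10 also stand in another of the lists. Labelled knockout mouse 2 did not lead most other lists. It led the other HSP70 and HSP110 genes (6 of 11) and tied with mouse 1 in the heat shock factors. Mouse 3 led the rest, among them 15 of 28 J-domain proteins and 12 of 21 HSP90 cochaperones. It also led 14 of 19 mitochondrial and 12 of 16 TRiC and prefoldin genes, where mouse 2 led 1 each.

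Genes with the most similar pattern were searched among the 11434 genes averaging 1 CPM or more, by Pearson r of log2 CPM over 12 libraries. The feeding groups lie apart, so each r carries the ethanol difference as well as the mouse-to-mouse one. Hspa8 and Hsph1 were among each other's closest (r = 0.964), and Hsp90ab1 was the third closest to Hsph1 (r = 0.95). Dnajb1 was closest to Fbxo33 (r = 0.987), Hspb1 to Gstp1 (r = 0.958), Hsp90aa1 to Rhbdf2 (r = 0.952), Bag3 to Rab10 (r = 0.926) and Hspe1 to Usmg5 (r = 0.942). Of the heat shock genes, Hsp90aa1 and Dnajb1 ran most against each other (r = -0.676).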

How the data were processed

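RNA of snap-frozen liver was extracted with Trizol and made into TruSeq libraries from 1 µg, per the labels' protocols. Alignment to mm10 with STAR 2.5, counting with featureCounts (Subread 1.5.3) and edgeR 3.20.8 are listed in the submitters' processing notes; no source used here gives the annotation, the strand setting or how reads that map to several places were treated. The authors deposited raw counts per gene and library, log2 CPM and their own log2 fold changes, p-values and false discovery rates for the genotype comparisons. The deposited exonic Length was used for CPM per kb.

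Counts were scaled by TMM and fitted in R 4.3.3 by edgeR 4.0.16 (quasi-likelihood, robust, all 12 libraries, 1 coefficient per group). P-values were adjusted by Benjamini-Hochberg over the 13097 genes, with a threshold of 0.05; standard errors were obtained by dividing the log2 fold change by the root of F. Ratios of gene pairs were tested by exact permutation of feeding within each label. Alternatives were other scalings, a filter of 1 CPM in 6 libraries, DESeq2 1.42.0, limma 3.58.1 (voom, with or without group weights), fits of the 2 groups alone, a replicate block and leaving out each library. Depth was 17305141 to 18279809 counts per library.

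The members and the gene lists were chosen with earlier results of these data known. All 10 members were described. Genes named from each chaperone list were drawn from the up to 3 with the smallest p past the threshold in a comparison. Not all of these are described: Pfdn4, Vbp1, Dnajc2, St13, Timm44, Tsc1, Ppid and Nudcd3 were left out. Hsf1, Hsf2, Hspa5, Hsp90b1, Hspa9 and Sirt6 were named whatever they did. Hyou1, Fkbp4 and Cct8 were named after their values were seen. Marker sums over cell types were made but used in no test. Libraries of a group differed far beyond sampling noise (chi-square over its degrees of freedom from 12.6 to 111), and none was a duplicate. Per the labels each is 1 liver sample of 1 group. The edgeR p-values set a group difference against the spread between these samples, estimated over all 4 groups together. That spread was wider in ethanol-fed than in pair-fed mice. The calling scripts were tested on simulated data.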

Additional observations from a re-analysis of the deposited data

How the results depend on the processing

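Over the 10 heat shock genes, 43 gene and comparison values were recomputed, 15 of them with the same direction and side of the threshold in every alternative. Under ethanol Hspb1 and Dnajb1 in wild-type mice and Bag3 in labelled knockout mice were past the threshold in all 20 alternatives. Of the alternatives that keep all libraries, 312 values stayed the same, 8 lost the threshold, 5 gained it and 4 turned; of the leave-outs, 460 stayed the same, 33 lost it, 12 gained it and 11 turned. The causes were not tested. Precision is limited by 3 mice a group, with a BCV of up to 0.271, and Hspa1b had as few as 16 counts in a library.

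Total-count scaling shifted the ethanol median over all genes to a log2 value of 0.14 in labelled knockout and 0.18 in wild-type mice and the share of higher calls to 69.9% and 74.1%, against 55.7% and 56.6% with TMM. It turned Hspd1 to 0.11 in wild-type mice and 0.034 averaged, and Hsf1 to 0.067 in labelled knockout and 0.020 in wild-type mice. With limma-voom Hspa1b in labelled knockout mice turned to -0.25 (-0.249 without and -0.250 with group weights). All genes called by label in pair-fed mice (114) were 253 with DESeq2, 554 with group weights and 490 with the 2 groups alone, and members called 2 with group weights (Hspb1 and Bag3) and 1 with the 2 groups alone. In ethanol-fed mice (148) they were 448, 21 and 47. Averaged over feeding (389) they were 682 with DESeq2, with 0 members under group weights, and for the interaction (1) 15 with DESeq2.

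Leaving out each library gave 1853 to 3867 genes called for ethanol in labelled knockout mice. For the label it gave 48 to 151 genes in pair-fed, 69 to 697 in ethanol-fed mice and 219 to 724 averaged, and for the interaction 1 to 20. Members called ranged over 1 to 5 (ethanol, labelled knockout), 2 to 7 (ethanol, wild type), 5 to 8 (ethanol averaged), 0 to 1 (label, ethanol-fed) and 0 to 1 (label averaged). In labelled knockout mice under ethanol the log2 values ranged over -0.85 to 0.086 for Hspa8, -1.10 to 0.72 for Hspa1b, -1.51 to 0.21 for Hsph1, -0.29 to 0.0100 for Hspe1 and -0.12 to 0.023 for Hsf1. By label in ethanol-fed mice they ranged over -0.063 to 1.21 for Hspa8, -0.34 to 1.65 for Hsph1 and -0.14 to 0.27 for Bag3. The interaction of Hsph1 ranged over -0.30 to 1.69, Hsp90b1 in wild-type mice over -0.29 to 0.80, and the Hspa1b to Hspa8 ratio over -0.37 to 0.0083.

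Same-numbered mice of different groups did not deviate together (r = -0.168 to 0.158, median -0.00807). Different-numbered mice gave r = -0.242 to 0.353. This shows no pairing by number but cannot exclude one, and the labels do not state any. With a replicate block, 3 members were called for ethanol in labelled knockout mice, 3 in wild-type mice and 5 averaged; Dnajb1 in labelled knockout and Hsp90ab1 in wild-type mice lost the threshold.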
